A study of Mus musculus with 12 samples.

Results

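The 8 genes described here carry out antigen presentation by MHC class II molecules. They comprise the chains H2-Aa, H2-Ab1 and H2-Eb1, the invariant chain Cd74, the peptide loading factors H2-DMa, H2-DMb1 and H2-DMb2, and the transactivator Ciita. They were taken by gene symbol from RNA-seq tables that list 22273 symbols for gastrocnemius and 22252 each for liver and gonadal white adipose tissue (WAT), and each of the 8 was found in all 3 tissues. They were chosen by their function and by their CPM values in these same comparisons of CORT with vehicle and of GRmKO with GRf/f mice, so the counts of these genes given below describe the libraries and are not tests.

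MHC class II molecules are heterodimers that display peptides from endosomes to CD4 T cells. They are made mainly by dendritic cells, macrophages and B cells, so that in muscle, liver and fat most of their transcript is generally attributed to resident immune cells. The invariant chain occupies the peptide groove during transport, H2-DM exchanges its remnant for antigenic peptide, and Ciita is the coactivator without which class II promoters are largely silent. Glucocorticoids act through the glucocorticoid receptor (GR), the product of Nr3c1, and are used as immunosuppressants.

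The mice were males of the C57BL/6J strain. GRf/f mice carried the floxed Nr3c1 gene without Cre. GRmKO mice carried it together with Cre under the promoter of skeletal actin (Acta1), which is active in muscle fibres, so that exon 3 is removed there. Liver, fat and the cells between muscle fibres keep an intact gene in this design. From 8 weeks of age the mice drank 1% ethanol as vehicle, or the same solution with corticosterone (CORT, the main rodent glucocorticoid) at 100 µg/mL, for 4 weeks. Each of the 12 combinations of tissue, genotype and treatment is represented by 1 library made from the pooled RNA of 3 mice. No group had a replicate, so the spread within a group is unknown, no p-value was computed, and the intervals below are 95% counting intervals that cover neither mice nor pools.

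The libraries held 19394572 to 20940660 estimated counts, and 3 counts, taken as the floor of detection, correspond to 0.14 to 0.15 counts-per-million (CPM). Nr3c1 in gastrocnemius measured 113 and 90.4 CPM in the vehicle and CORT libraries of GRf/f mice. In GRmKO mice it measured 46.4 and 35.5 CPM, which was 41.2% and 39.2% of the GRf/f level. Each tissue was high in its own markers: Acta1 lay between 32605 and 43035 CPM in gastrocnemius, Alb between 49853 and 111499 CPM in liver and Adipoq between 2016 and 4341 CPM in gonadal WAT. Fkbp5, a glucocorticoid-induced gene, was 61.9 and 355 CPM without and with CORT in GRf/f gastrocnemius and 30.0 and 20.8 CPM in GRmKO gastrocnemius. Hepatocyte transcripts stood higher in the GRmKO gastrocnemius libraries. All 5 of the hepatocyte markers were at least 2-fold higher there, beside 4.59% of all genes under vehicle and 4.4% under CORT. Alb was 56.4 and 198 CPM in these libraries against 4.13 and 7.47 CPM in GRf/f mice. In bulk tissue, fewer cells of a type and less RNA per cell cannot be told apart.

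The sequences shared by class II promoters are shown first, as they are the elements for which these promoters are known. The elements are an X box, bound by the RFX complex and next to a cAMP response element, and a Y box, bound by NF-Y, which together recruit Ciita. Of the 8 genes, 5 matched the RefSeq promoter table (assembly GRCm38.p6), which held 6 entries for them among 32851 in all. The 250 bases before each RefSeq start were searched on both strands for a Y box core (TGATTGG), an X box core (AACNGATGA) and a cAMP response element (TGACGTCA), which were picked after these sequences had been seen. Both kinds of element were found in 4 genes. The stretches run 5′ to 3′ on the gene's strand and the capitals mark the matches, first the X box core or, in H2-Aa, the cAMP response element, then the Y box core.
H2-DMb2: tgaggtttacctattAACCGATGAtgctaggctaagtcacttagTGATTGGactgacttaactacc
H2-DMb1: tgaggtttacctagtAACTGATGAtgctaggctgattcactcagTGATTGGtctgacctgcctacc
H2-Aa: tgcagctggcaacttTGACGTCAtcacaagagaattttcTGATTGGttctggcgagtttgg
H2-Eb1: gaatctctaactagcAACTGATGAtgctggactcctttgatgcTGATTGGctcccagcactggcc

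They lie on chromosome 17 at chr17:34145113-34145178 for H2-DMb2, chr17:34153084-34153149 for H2-DMb1 and chr17:34305763-34305827 for H2-Eb1, all on the plus strand, and at chr17:34287852-34287912 on the minus strand for H2-Aa. The starts used were those of RefSeq. By the GENCODE spans given below, the stretches of H2-DMb2 and H2-DMb1 lie inside the annotated genes, as the starts of the sources differ. The bases between the elements numbered 20 in H2-DMb2, 20 in H2-DMb1, 19 in H2-Eb1 and 16 in H2-Aa. Over all promoters of the table the Y box core was present in 7.23%, the X box core in 0.572% and the cAMP response element in 1.55%, and 56 promoters, or 0.17%, held a Y box core with either of the others. Neither of the entries for H2-DMa held these letters. The matches did not sort the genes by their changes with CORT described below, since H2-DMb2 holds both elements and was the least like the others, and H2-DMa holds neither. A match is a description of the sequence and was not tested as a binding site.

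In the mouse genome (GRCm38, GENCODE) 6 of the 8 genes sit within 197 kb of the MHC on chromosome 17. H2-DMa spans 34119541 to 34139101, H2-DMb2 34143307 to 34151555, H2-DMb1 34153072 to 34160230, H2-Ab1 34257689 to 34269419, H2-Aa 34282744 to 34287823 and H2-Eb1 34305867 to 34316674. Ciita is on chromosome 16, at 10480059 to 10528418. The H2-DMb1 and H2-DMb2 transcripts are near copies, with 37.6% and 44.3% of their 31-base words present in another coding gene, mainly in each other. Their separate levels therefore depend on how reads were divided between them, whereas at most 1.84% of the words of any other member were shared.

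Under vehicle the class II genes were highest in gonadal WAT. Cd74, the most abundant, measured 641 CPM in GRf/f WAT, 105 CPM in GRf/f gastrocnemius and 60.9 CPM in GRf/f liver. H2-Aa was 9.19-fold higher in WAT than in gastrocnemius and 13.5-fold higher than in liver in GRf/f mice, and 3.61-fold and 16.5-fold higher in GRmKO mice. Together the 8 genes made up 1576 CPM of GRf/f WAT, 218 CPM of GRf/f gastrocnemius and 133 CPM of GRf/f liver. Per kilobase of the retained transcript, the order of levels was Cd74, H2-Aa, H2-Ab1, H2-Eb1, then the H2-DM genes and last Ciita in all 6 vehicle libraries. The chains kept close proportions in these libraries: the per-length level of H2-Aa was 1.08 to 1.3 times that of H2-Ab1, that of H2-Eb1 was 0.679 to 0.821 times and that of Cd74 was 2.1 to 2.8 times. The H2-DM genes were an order of magnitude less abundant, H2-DMb1 at 0.0894 to 0.112 times the per-length level of H2-Ab1.

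**Figure D1:**
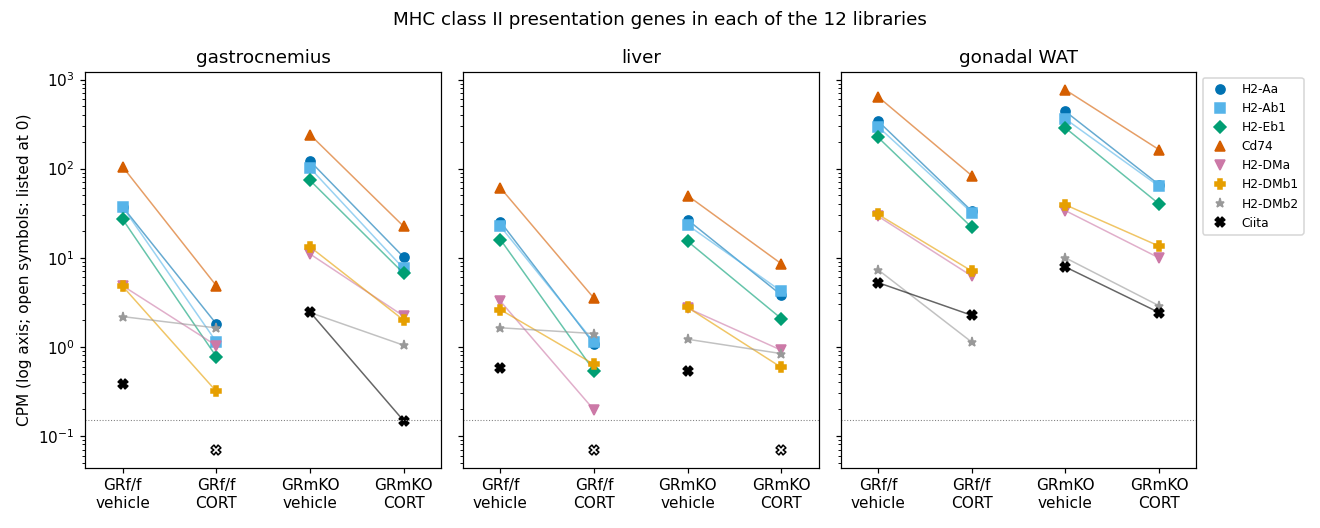
CPM (log axis) of the 8 class II genes in each library, by tissue; lines join the vehicle and CORT libraries of a genotype, open symbols stand for a gene listed at 0, drawn below the dotted line at 0.15 CPM. Every line slopes down from vehicle to CORT. WAT is the highest tissue, with Cd74 reaching 767 CPM, except for H2-DMb2 in the CORT libraries of GRf/f mice.

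With CORT, the class II genes were lower in every tissue and in both genotypes. H2-Aa, H2-Ab1, H2-Eb1, Cd74, H2-DMa and H2-DMb1 were each lower by at least 2-fold in all 6 comparisons of CORT with vehicle. H2-DMb2 passed that mark in 2 of 6, both in WAT. Ciita could be called only in WAT, where it was above 0 in all 4 libraries, and passed in both comparisons there. A gene was counted as lower or higher when the log2 ratio, with 0.5 CPM added to each side, was at least 1 in size and the gene was above 0 in all 4 libraries of the tissue. H2-Ab1, for example, retained between 3.07% and 18% of its vehicle level. The summed level of the 8 genes kept 5.29% of its vehicle value in gastrocnemius of GRf/f mice, 6.38% in liver and 11.9% in WAT, and in GRmKO mice 9.21%, 17.2% and 18.6%.

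In gastrocnemius H2-Aa, the alpha chain of the I-A molecule, measured 37.2 CPM with vehicle and 1.81 CPM with CORT in GRf/f mice, and 122 and 10.2 CPM in GRmKO mice. The fall was 20.6-fold (14.7 to 29.8) in GRf/f and 12-fold (10.4 to 13.9) in GRmKO mice. H2-Ab1, its beta chain, was 37.0 and 1.14 CPM in GRf/f mice and 102 and 7.56 CPM in GRmKO mice. H2-Eb1, the beta chain of the I-E molecule, was 26.9 and 0.774 CPM, then 73.9 and 6.68 CPM. Both CORT libraries lay below both vehicle libraries for all 3 chains, and the GRmKO library was the higher of each pair. The alpha chain of I-E, H2-Ea, was not analysed here, so the H2-Eb1 values do not show that an I-E molecule was made.

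Cd74, the invariant chain, whose gene is on chromosome 18, followed the chains in gastrocnemius with 105 and 4.85 CPM in GRf/f mice and 241 and 22.5 CPM in GRmKO mice. Its fall was 21.6-fold (17.6 to 26.9) and 10.7-fold (9.74 to 11.8). The loading factor H2-DMa changed less, from 4.84 to 1.03 CPM and from 11.0 to 2.21 CPM, or 4.69-fold (2.88 to 8.03) and 4.99-fold (3.60 to 7.02). H2-DMb1 went from 4.77 to 0.316 CPM and from 13.3 to 1.99 CPM. H2-DMb2 fell less and was not called, at 2.18 and 1.63 CPM in GRf/f mice and 2.42 and 1.04 CPM in GRmKO mice. Its ratio interval in GRf/f mice was 0.466 to 1.23, which includes 1. In GRmKO mice the ratio was 0.429 (0.241 to 0.718), which excludes 1, with a log2 change of -0.92. The share of H2-DMb2 in the H2-DMb pair ranged from 15.5% to 83.8% over the gastrocnemius libraries. Over all 12 libraries the lowest share was 13.7%, in WAT of CORT-treated GRf/f mice. Ciita was at 0.379 CPM and listed at 0 in GRf/f mice, a fall of 2.45-fold if the 0 is set to the floor of 3 counts. The counting interval of that fall reaches down to 1.67-fold. In GRmKO mice Ciita was at 2.46 and 0.148 CPM. In these libraries 7 of the 8 genes were above 0 throughout, and 6 of the 7 were lower with CORT in each genotype. Of all 13543 genes so measured in gastrocnemius, 4.72% were lower by this rule in GRf/f mice and 5.02% in GRmKO mice, and the median log2 change was -4.03 and -3.37 for the 7 genes against -0.08 and -0.10 for all.

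In liver the GRf/f CORT library was the lowest of the 4 for the chains and Cd74. H2-Aa was 25.4 and 1.08 CPM in GRf/f mice and 26.6 and 3.81 CPM in GRmKO mice. Its fall was 23.6-fold (15.4 to 38.0) and 6.97-fold (5.5 to 8.95). H2-Ab1 was 22.5, 1.12, 23.3 and 4.19 CPM in GRf/f vehicle, GRf/f CORT, GRmKO vehicle and GRmKO CORT libraries. H2-Eb1 was 16.0, 0.538, 15.3 and 2.07 CPM in the same order. Cd74 was 60.9 and 3.5 CPM in GRf/f mice and 49.8 and 8.55 CPM in GRmKO mice, a fall of 17.4-fold (13.7 to 22.3) and 5.82-fold (4.95 to 6.85). Among the loading factors, H2-DMa measured 3.25, 0.195, 2.71 and 0.914 CPM and H2-DMb1 2.61, 0.635, 2.76 and 0.586 CPM. H2-DMb2 stayed between 0.837 and 1.63 CPM, and its ratio intervals included 1 in both genotypes. Ciita was 0.574 and 0.534 CPM with vehicle and listed at 0 in both CORT libraries. With the 0 set to the floor of 3 counts, the falls were 3.92-fold and 3.70-fold. Their counting intervals reach down to 2.72-fold and 2.52-fold. Here too 7 genes were above 0 throughout and 6 were lower in each genotype, beside 5.72% of 12485 genes in GRf/f mice and 2.82% in GRmKO mice. The median log2 change of the 7 genes was -3.82 and -2.34.

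Gonadal WAT had the highest levels, except for H2-DMb2 in CORT-treated GRf/f mice, and the higher levels gave narrower counting intervals. H2-Aa measured 342 and 33.4 CPM in GRf/f mice and 439 and 66.1 CPM in GRmKO mice, so that 9.77% (9.02 to 10.6) and 15.1% (14.2 to 15.9) of the vehicle level remained. H2-Ab1 was 296, 32.1, 362 and 63.4 CPM in GRf/f vehicle, GRf/f CORT, GRmKO vehicle and GRmKO CORT libraries, and H2-Eb1 was 224, 21.9, 287 and 40.2 CPM. Cd74 went from 641 to 83.6 CPM in GRf/f mice and from 767 to 163 CPM in GRmKO mice. For all 4 genes each CORT library held at most 21.3% of the matching vehicle level. H2-DMa was 29.2, 6.23, 33.8 and 9.95 CPM in the same order, and H2-DMb1 was 30.7, 7.09, 39.2 and 13.5 CPM. In this tissue H2-DMb2 moved with the rest, from 7.32 to 1.13 CPM and from 9.97 to 2.89 CPM. Ciita was measurable in all 4 libraries, at 5.25 and 2.26 CPM in GRf/f mice and 7.87 and 2.42 CPM in GRmKO mice, a fall of 2.33-fold (1.63 to 3.38) and 3.25-fold (2.33 to 4.56). All 8 genes were above 0 throughout and all 8 were lower in each genotype, beside 8.07% of 14218 genes in GRf/f mice and 5.63% in GRmKO mice. The median log2 change was -2.60 and -1.97.

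**Figure D2:**
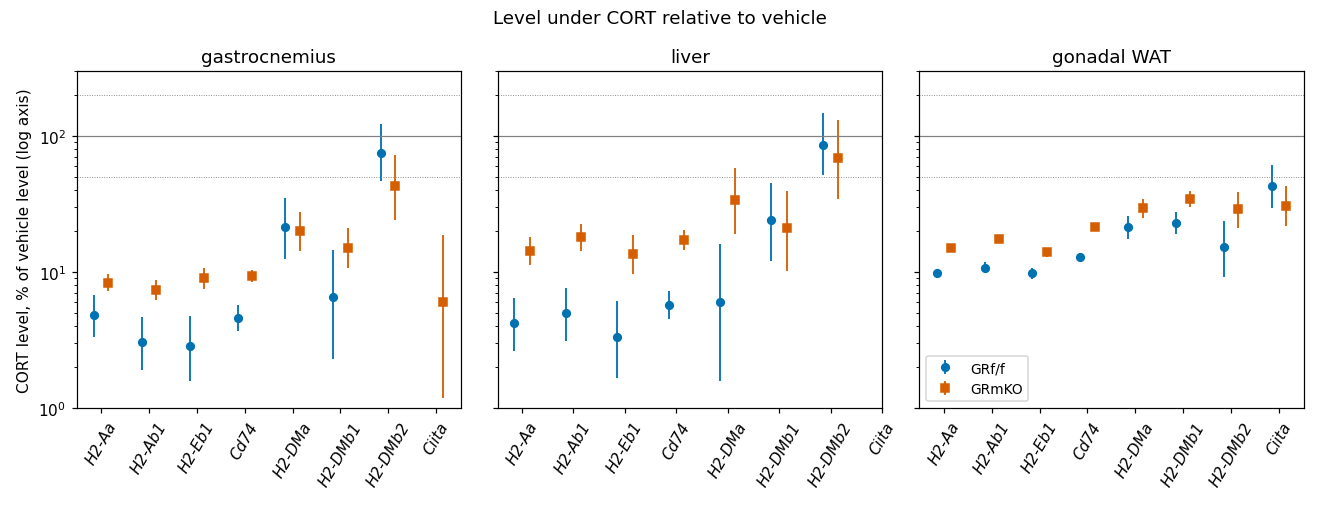
Level with CORT as a percentage of the level with vehicle (log axis) for each gene and tissue, GRf/f as circles and GRmKO as squares; bars are 95% exact counting intervals, and dotted lines mark 2-fold lower and higher. H2-Aa, H2-Ab1, H2-Eb1 and Cd74 lie between 2.87% and 21.3%, with the GRmKO point above the GRf/f point in each tissue; Ciita is not drawn where it was listed at 0.

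The genes thus differed in how far they were reduced. In every comparison of CORT with vehicle the chains and Cd74 kept between 2.87% and 21.3% of the vehicle level, while H2-DMa kept 6.01% to 33.7% and H2-DMb1 6.61% to 34.4%. The per-length level of H2-DMb1 relative to H2-Ab1 was 0.0894 to 0.112 in the 6 vehicle libraries and 0.121 to 0.487 in the 6 CORT libraries, ranges that do not overlap. For H2-DMa relative to H2-Ab1 the ranges were 0.0683 to 0.106 and 0.115 to 0.663. H2-Aa relative to H2-Ab1 showed no such shift, with 1.08 to 1.3 in vehicle and 0.975 to 1.71 in CORT libraries. The upper ends of these CORT ranges come from gastrocnemius and liver of GRf/f mice, where few counts remained. The lower end for H2-DMb1, 0.121, comes from GRmKO liver. There 21.2% (10.2 to 39.5) of H2-DMb1 remained against 18% (14.2 to 22.7) of H2-Ab1, intervals that overlap. The H2-DMb1 ratios also depend on how reads were divided with H2-DMb2. The libraries of a range differ in tissue and genotype and are not replicates, so the ranges are a description.

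The remaining level was larger in GRmKO than in GRf/f mice for the chains and Cd74 in all 3 tissues. In gastrocnemius 8.35% (7.21 to 9.63) of H2-Aa remained in GRmKO mice against 4.86% (3.35 to 6.81) in GRf/f mice. In liver the values were 14.3% (11.2 to 18.2) against 4.24% (2.63 to 6.48). Among the 8 class II genes, a larger share remained in GRmKO mice for 6 in gastrocnemius, 5 in liver and 7 in WAT. The counting intervals were apart for 4, 5 and 5 of them. The 6 include Ciita, listed at 0 in the GRf/f CORT library and at 0.148 CPM in the GRmKO one. The same count over all measured genes was not made, so these counts only describe the 8 genes. The difference between genotypes was not tested, since each rests on 1 pool per group. Fkbp5 shows how the libraries compare in another response to CORT: it was 47.7 and 286 CPM in GRf/f liver and 70.2 and 147 CPM in GRmKO liver, and 141 and 427 CPM against 206 and 264 CPM in WAT.

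Without CORT, deletion of muscle GR went with higher class II levels in gastrocnemius only among these tissues by the 2-fold rule. Relative to GRf/f mice, vehicle-treated GRmKO gastrocnemius held 3.27-fold (3.01 to 3.56) more H2-Aa, 2.75-fold (2.53 to 2.99) more H2-Ab1, 2.74-fold (2.48 to 3.03) more H2-Eb1 and 2.30-fold (2.19 to 2.42) more Cd74. H2-DMa and H2-DMb1 were 2.28-fold and 2.78-fold higher. H2-DMb2 was 1.11-fold higher with an interval of 0.732 to 1.74, and Ciita was 6.47-fold (2.84 to 14.8) higher on few counts. In all, 6 of 7 genes were higher, beside 4.59% of all genes. In liver none of the 7 genes was higher by this rule, beside 1.26% of all genes, and their ratios ran from 0.743 for H2-DMb2 to 1.06 for H2-DMb1. In WAT none of the 8 genes was, beside 1.07%, although all 8 ratios were above 1, from 1.16 for H2-DMa to 1.5 for Ciita. Macrophage markers moved with this difference in gastrocnemius: 8 of 11 measured markers were higher in GRmKO mice, with a median log2 change of 1.44 beside 1.38 for the class II genes, and their part in the result was not tested. Lyz2, a lysozyme of myeloid cells, was 66.2 CPM in GRf/f and 264 CPM in GRmKO mice, and Ctss, a cathepsin that trims the invariant chain, was 5.29 and 42.0 CPM.

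Under CORT the GRmKO libraries were again the higher for the chains and Cd74. In gastrocnemius H2-Aa was 5.62-fold (3.92 to 8.31), H2-Eb1 8.63-fold (5.06 to 15.9) and Cd74 4.64-fold (3.71 to 5.86) higher than in GRf/f mice, and 5 of 7 genes passed the 2-fold mark, beside 4.4% of all genes. In liver H2-Aa was 3.54-fold (2.18 to 5.96) and Cd74 2.44-fold (1.84 to 3.25) higher, and 5 of 7 genes passed, beside 2.44%. The liver count became 3 with 1 CPM added, and 0 at 4-fold and by NOISeq, the method of the authors for data without replicates. NOISeq left 3 of the 5 in gastrocnemius. In WAT only H2-DMb2 passed, at 2.56-fold (1.57 to 4.46), beside 1.43%, while H2-Aa, H2-Ab1 and Cd74 lay just under the mark at 1.98-fold, 1.98-fold and 1.95-fold. Scaling by TMM or by median of ratios put 3 genes past the mark in WAT instead of 1. None of the 11 measured macrophage markers was higher under CORT in gastrocnemius or in liver, with median log2 changes of 0.16 and 0.48. These comparisons share their CORT libraries with those of CORT against vehicle and are not independent of them.

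**Figure D3:**
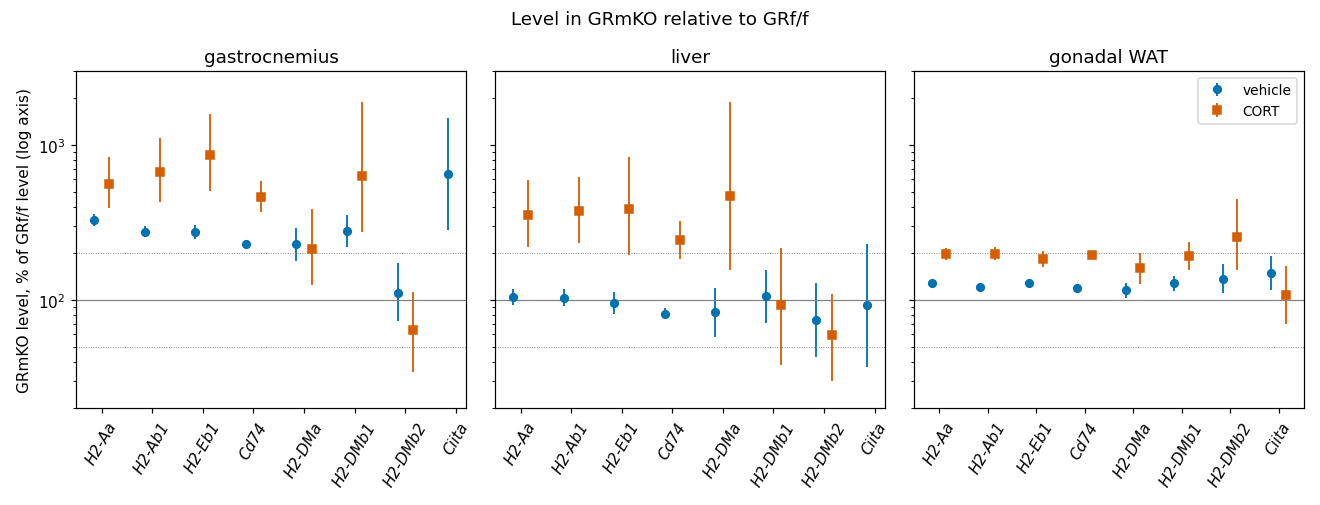
Level in GRmKO as a percentage of that in GRf/f mice (log axis) for each gene and tissue, vehicle as circles and CORT as squares; bars are 95% exact counting intervals, and dotted lines mark 2-fold lower and higher. Under vehicle the gastrocnemius points of 6 genes above 0 in every library lie between 228% and 327%, those of liver near 100% and those of WAT between 116% and 150%.

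Markers of the cells that carry class II molecules were read beside these values. In gonadal WAT the median of the macrophage markers was higher with CORT while that of the class II genes was lower, though single markers went either way. In GRf/f mice 5 of 12 markers were higher, beside 5.49% of all genes, 1 was lower, and their median log2 change was 0.90. Adgre1 (F4/80) was 23.3 and 65.1 CPM, Cd68, a lysosomal protein of macrophages, was 50.9 and 171 CPM, and Lyz2 was 436 and 1137 CPM without and with CORT. The marker that was lower by the 2-fold rule in both genotypes was Ccr2, the receptor that brings monocytes into tissue, at 27.6 and 5.88 CPM in GRf/f mice. In GRmKO mice 1 of 12 was higher, beside 3.47% of all genes, and 1 lower, beside 5.63%, with a median of 0.71. Mertk and Fcgr1 also went down there, with log2 changes of -0.55 and -0.27. The medians of the macrophage markers and of the class II genes thus had opposite signs in the fat of both genotypes.

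In gastrocnemius of GRf/f mice none of the 11 measured macrophage markers was higher or lower, where 3.26% of all genes were higher and 4.72% lower, and their median log2 change was 0.04 while that of the class II genes was -4.03. In GRmKO gastrocnemius 9 of 11 were lower, beside 5.02% of all genes, and none higher, beside 1.51%, with a median of -1.27. In liver 7 of 11 were lower in GRf/f mice, beside 5.72% of all genes, with a median of -1.37, and 2 of 11 in GRmKO mice, beside 2.82%, with a median of -0.61. None was higher in liver, where 5.9% and 2.8% of all genes were higher. Ccr2 in gastrocnemius was 3.81 CPM in GRf/f and 8.86 CPM in GRmKO mice with vehicle and listed at 0 in both CORT libraries.

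Complement C1q, made by tissue macrophages, gives a single denominator for this comparison. The summed level of the 8 class II genes was 3.42 times that of C1qa, C1qb and C1qc in vehicle-treated GRf/f gastrocnemius and 0.191 times with CORT, a fall of 17.9-fold. In GRmKO gastrocnemius it was 3.26 and 0.704 times. In liver it was 1.22 and 0.216 times in GRf/f mice and 1.32 and 0.346 times in GRmKO mice. In WAT it was 3.49 and 0.232 times in GRf/f mice and 3.98 and 0.434 times in GRmKO mice. C1q itself moved with CORT, in different directions between tissues. In WAT C1q was 179% and 171% of its vehicle level in GRf/f and GRmKO mice. In gastrocnemius it was 94.5% and 42.6%, and in liver 36.0% and 65.5%. The ratio was lower with CORT in 6 of 6 pairs of libraries, and within each tissue the vehicle libraries of both genotypes lay close together.

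**Figure D4:**
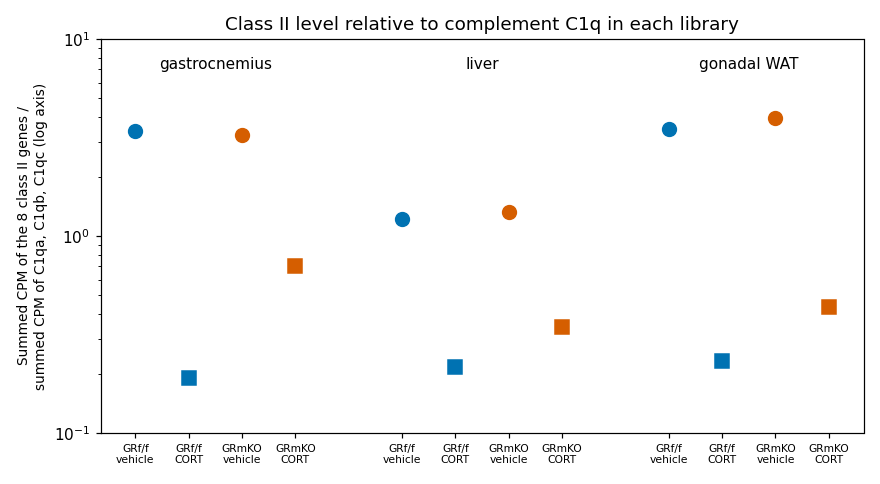
Summed CPM of the 8 class II genes divided by the summed CPM of C1qa, C1qb and C1qc (log axis) in each of the 12 libraries, GRf/f in blue and GRmKO in orange, vehicle as circles and CORT as squares. Vehicle libraries lie at 3.26 to 3.98 in gastrocnemius and WAT and at 1.22 to 1.32 in liver, and all CORT libraries lie at 0.191 to 0.704.

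Dendritic cell markers were low and fell in part. With CORT 4 of 8 measured markers were lower in GRf/f and 5 of 8 in GRmKO gastrocnemius, 4 of 10 in WAT of either genotype, and 1 of 6 in liver of either genotype. Of all genes, 4.72% were lower in GRf/f and 5.02% in GRmKO gastrocnemius, 5.72% and 2.82% in liver, and 8.07% and 5.63% in WAT. Those higher were 3.26% and 1.51% in gastrocnemius, 5.9% and 2.8% in liver, and 5.49% and 3.47% in WAT. Counts of genes past 2-fold with CORT in the lists below stand beside these shares. The dendritic cell markers had a median log2 change of -0.85 and -0.83 in WAT. It was -0.78 and -1.16 in gastrocnemius and 0.16 and -0.38 in liver. Cd209a, a lectin of monocyte-derived dendritic cells, was 1.92 and 0.103 CPM in GRf/f gastrocnemius, 4.59 and 0.442 CPM in GRmKO gastrocnemius, 6.71 and 1.17 CPM in GRf/f WAT and 8.56 and 3.22 CPM in GRmKO WAT. In all 4 pairs the CORT library was the lower. Zbtb46, a transcription factor of conventional dendritic cells, was 18.1 and 5.82 CPM in GRf/f WAT and 13.2 and 7.22 CPM in GRmKO WAT. Itgax (CD11c) and Irf8 did not move with them in WAT. Itgax was 9.42 and 13 CPM in GRf/f and 13 and 15 CPM in GRmKO mice. Irf8 was 14.0 and 17.5 CPM, then 14.8 and 16.5 CPM. Outside WAT, Zbtb46 was 9.3 and 8.7 CPM in GRf/f gastrocnemius, 7.76 and 6.89 CPM in GRmKO gastrocnemius and 2.0 and 2.63 CPM in GRf/f liver.

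More B cell and T cell markers were above 0 in every library in WAT than in the other tissues. With CORT 7 of 8 B cell and plasma cell markers were lower in GRf/f WAT and 6 of 8 in GRmKO WAT, and Cd79a, part of the B cell receptor, was 4.81 and 0.552 CPM in GRf/f and 7.19 and 1.49 CPM in GRmKO mice. The exception was Ighm, the IgM heavy chain, at 315 and 873 CPM in GRf/f WAT. All 6 T cell markers were lower in GRf/f WAT and 3 of 6 in GRmKO WAT. In gastrocnemius 3 of 9 B cell markers and 2 of 6 T cell markers were above 0 in every library, and in liver 4 of 9 and 1 of 6. Of these B cell markers 1 of 3 was lower with CORT in gastrocnemius and 2 of 4 in liver, in each genotype. Ighm was among them in gastrocnemius, at 61.7 and 12.6 CPM in GRf/f and 140 and 59.5 CPM in GRmKO mice. The part of macrophages, dendritic cells, B cells or T cells in the fall of the class II genes was not tested. The leukocyte gene Ptprc (CD45) gave no common measure, as it was listed at 0 in CORT-treated GRf/f WAT, where Laptm5, another gene of leukocytes, was 213 CPM. Of the pan-leukocyte genes 2 were measured throughout in gastrocnemius and WAT and 3 in liver. Their median log2 change with CORT was -0.72 in gastrocnemius, -1.43 in liver and 0.03 in WAT of GRf/f mice, and -1.80, -1.08 and -0.13 in GRmKO mice.

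**Figure D5:**
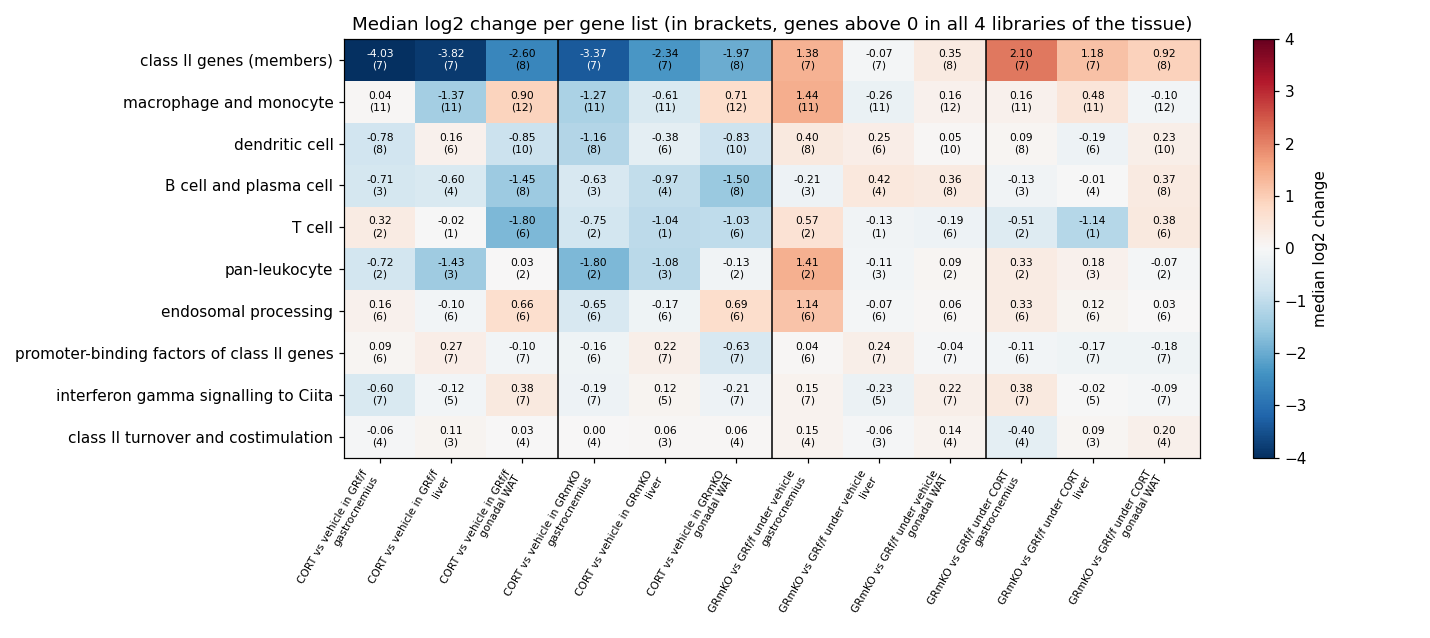
Median log2 change of the class II genes and of 9 gene lists (rows) in each of the 12 comparisons (columns), with the number of genes above 0 in all 4 libraries of the tissue in brackets; blue is lower and red higher in the first-named group. The class II row is lowest under CORT, from -4.03 to -1.97, while the macrophage row is 0.90 and 0.71 in WAT.

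The values below assume that carried-over tissue brought its H2-Aa into gastrocnemius in the same share as its marker, which was not tested. Alb in gastrocnemius reached 0.178% of its liver level in the CORT library of GRmKO mice, and at that share the liver level of H2-Aa would amount to 0.00677 CPM where 10.2 CPM was measured. Adipoq, an adipocyte hormone, was 14.6 and 63.0 CPM in GRf/f gastrocnemius, or 0.386% and 3.12% of its WAT level. At these shares the WAT level of H2-Aa would amount to 1.32 CPM beside the 37.2 CPM measured with vehicle, and to 1.04 CPM beside the 1.81 CPM measured with CORT. How much of the H2-Aa in muscle came from liver or from fat was not tested. Of the adipocyte markers 3 of 4 were higher with CORT in gastrocnemius of each genotype, beside 3.26% of all genes in GRf/f and 1.51% in GRmKO mice. The remaining marker, Cfd, was lower in GRf/f gastrocnemius, at 53.4 and 22.6 CPM, and was 48.8 and 29.6 CPM in GRmKO gastrocnemius. Lymph node stroma was followed with 4 genes, of which Ccl21a, a chemokine also made by lymphatic vessels, was 19.7 and 3.80 CPM in GRf/f gastrocnemius and 18.5 and 5.35 CPM in GRmKO gastrocnemius. None of the 5 skeletal muscle markers was higher or lower with CORT in gastrocnemius. Under vehicle Myh4 was lower in GRmKO than in GRf/f gastrocnemius, at 15392 against 35764 CPM. The other markers of that list were not past 2-fold between genotypes under vehicle. Of the 5 neutrophil genes none was above 0 in all 4 libraries of gastrocnemius or of liver and 3 were in WAT, where 1 was lower with CORT in each genotype. Of the 5 epididymis genes 1 was above 0 throughout in WAT and in liver and none in gastrocnemius, and it was neither higher nor lower with CORT.

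Upstream of the class II genes, the factors that bind the X and Y boxes showed no lower calls with CORT except in GRmKO WAT. These are Rfx5, Rfxap and Rfxank of the RFX complex, Nfya, Nfyb and Nfyc of NF-Y, and Creb1. In gastrocnemius none of the 6 measured in every library was higher or lower with CORT in either genotype, with medians of 0.09 and -0.16. Rfx5, the DNA-binding subunit, was 4.6 and 5.23 CPM in GRf/f and 3.27 and 2.86 CPM in GRmKO gastrocnemius. In liver 2 of 7 were higher in GRf/f mice, beside 5.9% of all genes, and 1 of 7 in GRmKO mice, beside 2.8%. In GRf/f WAT 1 of 7 was higher, beside 5.49% of all genes. In GRmKO WAT 3 of 7 were lower, beside 5.63% of all genes, with a median of -0.63. There Rfx5 was 8.65 and 2.49 CPM, Rfxap 15 and 7.23 CPM and Nfya 24.5 and 12 CPM. Nfya ran from 1.05 to 24.5 CPM over the liver and WAT libraries and was listed at 0 in vehicle-treated GRmKO gastrocnemius, where the other libraries of that tissue held 5.56 to 11.1 CPM.

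Interferon gamma is the classical inducer of Ciita. Ifng itself was at 0 or no more than 0.15 CPM in every library. Irf1, a transcription factor induced by interferons, was 50.7 and 17.2 CPM in GRf/f WAT and 39.2 and 20 CPM in GRmKO WAT. In GRf/f gastrocnemius Irf1 was 7.32 and 9.04 CPM and in GRf/f liver 14.4 and 14.0 CPM, while in GRmKO mice it was 16 and 9.22 CPM in gastrocnemius and 14.3 and 8.48 CPM in liver. By the 2-fold rule it was lower with CORT in GRf/f WAT alone, and under vehicle it was higher in GRmKO than in GRf/f gastrocnemius, with a log2 change of 1.08. Over the list, 2 of 7 genes were lower with CORT in GRf/f gastrocnemius, beside 4.72% of all genes. In GRmKO gastrocnemius none was lower, beside 5.02%, and 1 was higher, beside 1.51%. None of the 5 measured in liver was lower or higher. In WAT 1 of 7 was lower in each genotype, beside 8.07% of all genes in GRf/f and 5.63% in GRmKO mice.

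The endosomal proteases that prepare class II molecules and peptides were not reduced in fat. The median log2 change with CORT over the 6 proteases was 0.66 in GRf/f and 0.69 in GRmKO WAT. In each, 1 of 6 was higher, beside 5.49% and 3.47% of all genes. Ctss was 59.9 and 128 CPM in GRf/f WAT and 80.1 and 132 CPM in GRmKO WAT. Ctsd, an aspartic protease, was 1435 and 2708 CPM in GRf/f WAT and 1252 and 2511 CPM in GRmKO WAT. In gastrocnemius the median was 0.16 in GRf/f mice, with 1 of 6 lower, and -0.65 in GRmKO mice, with 2 of 6 lower. Lgmn (legumain) was the gene that was lower in GRf/f gastrocnemius, at 19.9 and 7.17 CPM. In liver 2 of 6 were lower in GRf/f mice, where Ctss was 23.1 and 6.99 CPM, and none was in GRmKO mice.

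The remaining genes of the locus were scarce. H2-Oa and H2-Ob, which together form the H2-DM inhibitor of B cells, were 1.30 and 0.1 CPM and 2.71 and 0.0777 CPM in GRf/f WAT without and with CORT, and 0.962 and 0.347 CPM and 2.84 and 0.990 CPM in GRmKO WAT. In gastrocnemius both were listed at 0 in both CORT libraries, and H2-Oa also in the vehicle library of GRf/f mice. H2-Eb2 did not exceed 0.15 CPM anywhere. Genes of class II turnover and costimulation showed no fall as a list in GRf/f mice, with medians of -0.06, 0.11 and 0.03 in gastrocnemius, liver and WAT. Among them Cd86, a ligand of CD28, was 6.11 and 8.19 CPM in GRf/f WAT, and Marchf1, a ubiquitin ligase that removes class II molecules from the surface, was 5.25 and 4.07 CPM. In GRmKO gastrocnemius Marchf1 was lower by the 2-fold rule, at 2.7 and 0.64 CPM, while the other genes of the list were not past the mark.

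The genes whose pattern was most like that of the class II genes were sought among 6727 genes with a mean of at least 5 CPM in every tissue. Likeness was Pearson's r of log2 values, centred within tissue, with the mean of the 8 genes over 12 libraries. The 12 points share tissues and treatments, so r is a description without a test. The 10 closest were Psmb10 and Ltbp4 at 0.97, C1ra, Cygb and Fbxo21 at 0.96, and Laptm4a, Igf1, Zc3hav1, Gimap4 and Rnf213 at 0.95. With CORT their log2 changes ran from -1.30 to -0.18 in GRf/f gastrocnemius and from -2.13 to -0.20 in GRf/f WAT, none as large as those of H2-Aa, H2-Ab1, H2-Eb1 and Cd74 in the same tissue. Psmb10, an immunoproteasome subunit of the class I pathway, was 38.0 and 16.4 CPM in GRf/f WAT, 18.7 and 9.09 CPM in GRf/f liver and 7.51 and 4.02 CPM in GRf/f gastrocnemius. Gimap4, a GTPase of lymphocytes, was 21.3 and 4.46 CPM in GRf/f WAT. Within the 8 genes, r with the mean of the others was 0.97 to 0.99 for the chains, Cd74, H2-DMa and H2-DMb1, 0.92 for Ciita and 0.63 for H2-DMb2.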

How the data were processed

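RNA-seq of pooled RNA (3 mice per pool) was available for 12 libraries, 1 for each tissue, genotype and treatment. The authors sequenced paired 100-base reads, quantified them with Salmon 1.2.1 on protein-coding transcripts of GENCODE M20, and imported them in R 3.5.0 with tximport (lengthScaledTPM). The files deposited by the authors thus hold expected counts, that is estimated counts without scaling between libraries. Each symbol carries 1 transcript identifier, and whether values were summed over a gene beforehand was not settled, so a 0 can be an estimate that failed and a level belongs to the retained entry. All 8 members had the same entry in the 3 tissues. Positions came from GENCODE M21 on the same build, GRCm38.

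Counts were divided by the library total to give CPM. Ratios carry exact (Clopper-Pearson) intervals on rounded counts, for counting error only. A gene was called at 2-fold after 0.5 CPM was added, if all 4 libraries of the tissue were above 0. Log2 changes include the added 0.5 CPM and the intervals do not, so for low genes a log2 change can lie outside its interval. With 1 library per group the spread within a group cannot be estimated, and no test was run, the members having been chosen on these contrasts. Alternatives were TMM (edgeR 4.0.16), median of ratios, pseudocounts of 0.1 and 1 CPM, thresholds of 1.5-fold and 4-fold, no filter, a mean of at least 1 CPM, NOISeq as the authors used it (probability 0.9), and H2-DMb1 with H2-DMb2 summed. The call script was tested on simulated data. Python 3.11.15 with pandas 2.3.3 and scipy 1.17.1 was used. The genes named are the 8 members, the genes of the pathway and marker lists, Nr3c1, Fkbp5 and the 10 genes of most similar pattern. Members and lists were chosen with earlier results of these data known. The motifs and the ratio to C1q were chosen after the data were seen. H2-Ea, H2-Ea-ps and Ifi30 of the lists were not analysed here.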

Additional observations from a re-analysis of the deposited data

How the results depend on the processing

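Of 384 log2 changes of single genes recomputed with other scaling factors or pseudocounts, 372 moved by no more than the distance from the middle of the counting interval to its end, 12 moved further and 0 of the called changes changed direction. Changes of Ciita against a library at 0 have no finite interval and were counted with the former. The scaling factors shifted the median of all genes by at most 0.15 on the log2 scale. Of 120 counts of genes past 2-fold, 107 stayed within 1.5 times the reported count. In GRmKO against GRf/f mice under vehicle, the 6 genes of gastrocnemius became 0 at 4-fold. Under CORT, the 5 genes of gastrocnemius became 3 by NOISeq, and the 5 genes of liver became 3 with 1 CPM added, 0 at 4-fold and 0 by NOISeq. In WAT the 1 gene higher in GRmKO mice under CORT became 3 with TMM, 3 with median of ratios and 3 by NOISeq, 7 at 1.5-fold, and 0 with 1 CPM added, at 4-fold and with the H2-DMb genes summed. For CORT against vehicle in GRmKO WAT, the 8 genes became 4 at 4-fold. A higher threshold or a larger pseudocount passes fewer genes by construction, and for the others the cause was not tested. NOISeq called 4 members in GRf/f gastrocnemius and 4 in liver of either genotype for CORT, against 6 by the 2-fold rule, and 6 in WAT of either genotype against 8, without H2-DMb2 and Ciita.

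No group holds a replicate, so no pairing by replicate number exists, and CORT and vehicle libraries of the same tissue and genotype were compared without a test. Neither the spread between mice nor that between pools can be estimated. Depth limits Ciita outside WAT and the H2-DM genes in CORT-treated liver and gastrocnemius, where few counts remained.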

Other observations

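Several markers in vehicle-treated gastrocnemius differed between genotypes while the class II genes kept their proportion to C1q. Lyz2 was 66.2 CPM in GRf/f and 264 CPM in GRmKO mice, Csf1r, the receptor for macrophage colony-stimulating factor, was 13.2 and 49.7 CPM, and Laptm5 was 17.9 and 49.3 CPM. With CORT these were 67.8 and 109 CPM, 19.1 and 11.4 CPM, and 12.3 and 15.1 CPM. Ighm in gastrocnemius, at 61.7 and 12.6 CPM in GRf/f and 140 and 59.5 CPM in GRmKO mice, followed the class II genes in both contrasts, whereas Ighm in GRf/f WAT was higher with CORT. Jchain, which joins IgM and IgA, was 12.7 and 2.51 CPM in GRf/f WAT and 10.9 and 1.78 CPM in GRmKO WAT, in the opposite direction to Ighm.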
